A study of Musca domestica with 16 samples.

Results

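Testes of house flies, Musca domestica, were compared with male heads from the same strains, in 12 of the 16 libraries of the series. The libraries were chosen by their labels, 6 from testes and 6 from male heads. Messenger RNA came from unmated males 4 to 6 days old, kept at 25 °C. The libraries formed 4 groups of 3. They were testes of strain CSaY, whose males carry the male determiner on the Y chromosome (YM), testes of strain CS, whose males carry it on chromosome III (IIIM), male heads of CSaY and male heads of CS. The male determiner is the factor that starts male development in this species and can sit on different chromosomes. The labels do not say whether a library holds tissue of several males, and each strain is 1 line.

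The fly testis holds germ cells at every step from stem cell to sperm, together with the somatic cells that surround them. In Drosophila, spermatocytes switch on a large set of genes that are silent in other tissues, and many of them serve meiosis and the building of the sperm tail. The fly head holds the brain and the sense organs, and also muscle, cuticle and fat body, a tissue that stores nutrients, detoxifies and secretes immune peptides.

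The authors' deposited table gives 1 value per group in FPKM, the number of fragments scaled by transcript length and by the size of the library, for each of 14631 genes. Each gene therefore has 1 testis to male head ratio in CSaY and 1 in CS. Ratios were taken as log2 of (testis FPKM + 1) over (male head FPKM + 1). They were centred on the median of the 4190 genes with at least 10 FPKM in all 4 columns, which was -0.05 in CSaY and -0.15 in CS. A gene was counted as higher or lower in testis when it lay at least 2-fold away in the same direction in both strains. No spread between libraries, no read depth and no p-value can be given, and agreement of the strains is the only repeat. In tissue RNA, fewer cells of a type and less RNA per cell cannot be told apart.

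Testis and male head differed in 53.9% of the genes. Of the 11748 genes with at least 1 FPKM in at least 1 of the 4 columns, 3765 were higher in testis (32%) and 2572 were lower (21.9%). Genes near 0 in 1 tissue passed only through the other, so these shares depend on the filter. A further 3648 genes lay within 2-fold in both strains, 1754 passed 2-fold in 1 strain alone and 9 passed it in opposite directions (0.0766%). The strains gave ratios that differed by a median of 0.33 on the log2 scale, and 947 genes differed by at least 2-fold in their ratio. Across genes, which are not independent replicates, the ratios of the strains had a Pearson correlation of 0.971. The median centred ratio of all genes that passed was 0.21 in CSaY and 0.32 in CS.

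**Figure D1:**
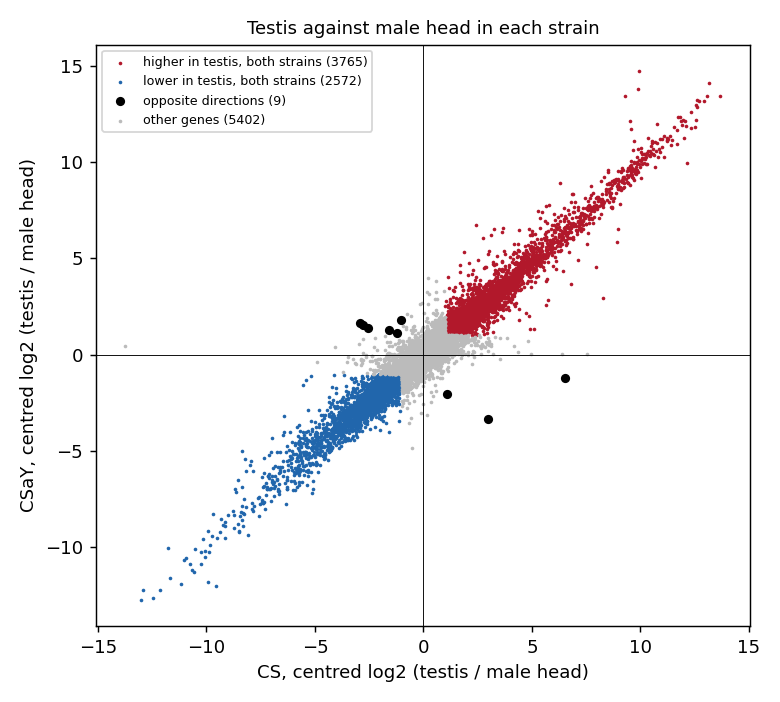
Centred log2 ratios of testis to male head, with CS on the horizontal and CSaY on the vertical axis, 1 point per gene. The 3765 genes higher in testis lie at the upper right and the 2572 lower ones at the lower left, and the 9 large black points mark genes past 2-fold in opposite directions.

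The difference was more lopsided among genes with large ratios. At 64-fold or more in both strains, 375 genes were higher in testis and 118 were lower. At 512-fold or more the counts were 135 higher and 27 lower. The genes counted as higher had median levels of 28.1 FPKM in CSaY and 28.4 FPKM in CS testes, against 1.70 FPKM and 1.60 FPKM in the heads of these strains. The genes counted as lower had medians of 4.27 FPKM in CSaY and 4.18 FPKM in CS testes, against 39.8 FPKM and 43.9 FPKM in heads. The median level in the tissue with less RNA was thus below 2 FPKM for testis-rich genes in heads and above 4 FPKM for head-rich genes in testes.

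**Figure D2:**
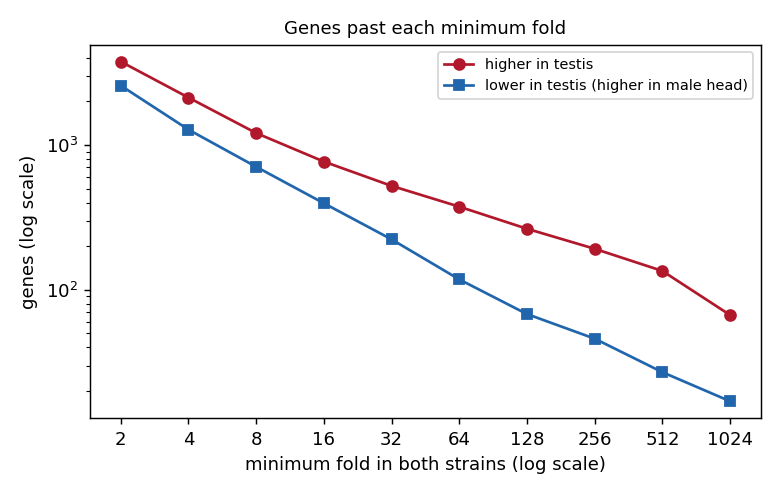
Number of genes at or past each minimum fold in both strains, on log scales. The line for genes higher in testis lies above the line for lower genes at every fold, with 375 against 118 genes at 64-fold and 67 against 17 at 1024-fold.

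Genes at 10 FPKM or more in 1 tissue and listed at 0 in the other were mostly testis genes. The base was 6177 genes with at least 10 FPKM in both testis columns and 5712 genes with as much in both head columns. A total of 217 genes had at least 10 FPKM in testes of both strains and were listed at 0 in both head columns, and 27 genes had at least 10 FPKM in both head columns and were listed at 0 in both testis columns. The 217 genes had median levels of 102.7 FPKM in CSaY and 88.0 FPKM in CS testes. The 27 head genes had medians of 58.1 FPKM in CSaY and 60.2 FPKM in CS heads. In all, 447 of the 3765 genes higher in testis were listed at 0 in both head columns, and 65 of the 2572 lower genes in both testis columns. A 0 in such a table need not mean that no reads were present. Of 35 genes with at least 1000 FPKM in both head columns and at least 64-fold above testis, 6 were at 0 in CSaY and 3 in CS testes. Of 82 testis genes chosen in the same way, 43 were at 0 in CSaY and 29 in CS male heads. How far the columns differ in listing traces as 0 was not tested. Within a tissue, 6 genes of the male head and 3 of the testis were listed at 0 in 1 strain while the other strain stood at 10 FPKM or more. The clearest case was LOC101898316, listed at 0 in CSaY heads and at 19755 FPKM in CS heads.

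The RNA of each tissue was concentrated in few genes to a similar degree. The 10 most abundant genes made up 12.9% of all FPKM in CSaY testes and 12.4% in CS testes, against 14.7% in CSaY heads and 14.5% in CS heads. It took 189 genes in CSaY and 221 in CS testes to reach 50% of all FPKM, against 170 and 157 genes in the heads of these strains. Of the 100 most abundant genes in CSaY testes 57 were counted as higher in testis, and in CS testes 61, beside 32% of all genes. Of the 100 most abundant in CSaY heads 52 were counted as lower in testis, and in CS heads 46, beside 21.9% of all genes. Genes were ranked by levels that also form the ratio, so an excess over all genes was built in. Genes that did not reach 2-fold in both strains made up 43 and 39 of the 100 in CSaY and CS testes. In CSaY and CS heads they made up 47 and 53. At 1000 FPKM or more in both strains there were 177 genes in testis and 202 in male head, with 73 genes in both sets.

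The most abundant testis transcript belonged to LOC101888455, at 26192 FPKM in CSaY and 28635 FPKM in CS testes, against a listed 0 in CSaY and 31.9 FPKM in CS heads. This gene spans 283 bases, and the FPKM of such a short transcript depends strongly on how its length enters the estimate. The next, LOC101900596 on chromosome 2, was abundant in both tissues, at 20569 and 17436 FPKM in CSaY and CS testes, against 1493 and 1668 FPKM in CSaY and CS heads. The authors' deposited table lists this gene at 0 in its testis column that joins the strains. LOC101888874 on chromosome 5 showed the same pattern, at 19876 and 16618 FPKM in CSaY and CS testes, against 2766 and 3571 FPKM in the heads. No gene name or function is paired with these IDs in the table used for names.

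Ordered by the smaller of the ratios in the strains, the 3 genes at the testis end of the scale were listed at 0 or stood near 0 in head. LOC101895617, 258 bases on scaffold NW_004765987 of chromosome 1 (positions 52314 to 52571), stood at 10773 FPKM in CSaY and 11829 FPKM in CS testes and was listed at 0 in both head columns. LOC101895746, also on chromosome 1, stood at 17809 FPKM in CSaY and 9678 FPKM in CS testes, against 0.0630 and 0.192 FPKM in CSaY and CS heads. LOC101898014 on chromosome 5 stood at 10549 FPKM in CSaY and 7764 FPKM in CS testes and was listed at 0 in both head columns. LOC101895746 has 1 Drosophila gene paired with it in the table, and the others have none. LOC101895746 and LOC101898014 each share a locus with another gene, and how reads were divided there was not stated.

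At the head end of the scale stood 3 genes without a gene name as well. LOC101898872, of 323 bases on chromosome 4, stood at 1.18 FPKM in CSaY and 1.02 FPKM in CS testes, against 15434 FPKM and 18770.4 FPKM in CSaY and CS heads. LOC101900960 on chromosome 5 was listed at 0 in CSaY and stood at 0.201 FPKM in CS testes, against 6736 and 7550 FPKM in CSaY and CS heads. LOC101889983 on chromosome 2 stood at 0.504 and 0.123 FPKM in CSaY and CS testes, against 7397 and 9754 FPKM in CSaY and CS heads. These genes were chosen by their low ratio, so their low testis values are a description. The most abundant head transcript of all, LOC101890209, stood at 7.38 FPKM in CSaY and 6.72 FPKM in CS testes, against 41709 FPKM and 39107 FPKM in the heads.

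A gene symbol was available for 52 of the 14631 genes, and 48 of these passed the filter. Of the 48, 7 were higher in testis, 19 were lower, 21 did not reach 2-fold in both strains and 1 changed direction between the strains. Their median centred ratio was -0.52 in CSaY and -0.72 in CS, below that of all genes, so the genes with symbols lean toward the head and do not stand for the transcriptome. No symbol belongs to a gene of the sperm tail, meiosis, photoreceptor or odorant receptor, so neither tissue label could be checked against a full set of defining markers. The peptide gene pdf, a marker of clock neurons in the insect brain, was found in heads and was close to 0 in testes. The gene bcd, whose RNA is stored in the fly egg, stood at 0.577 FPKM in CSaY and 1.96 FPKM in CS testes and was listed at 0 in both male head columns, where ovaries of CSaY and CS had 249.7 and 252.5 FPKM.

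**Figure D3:**
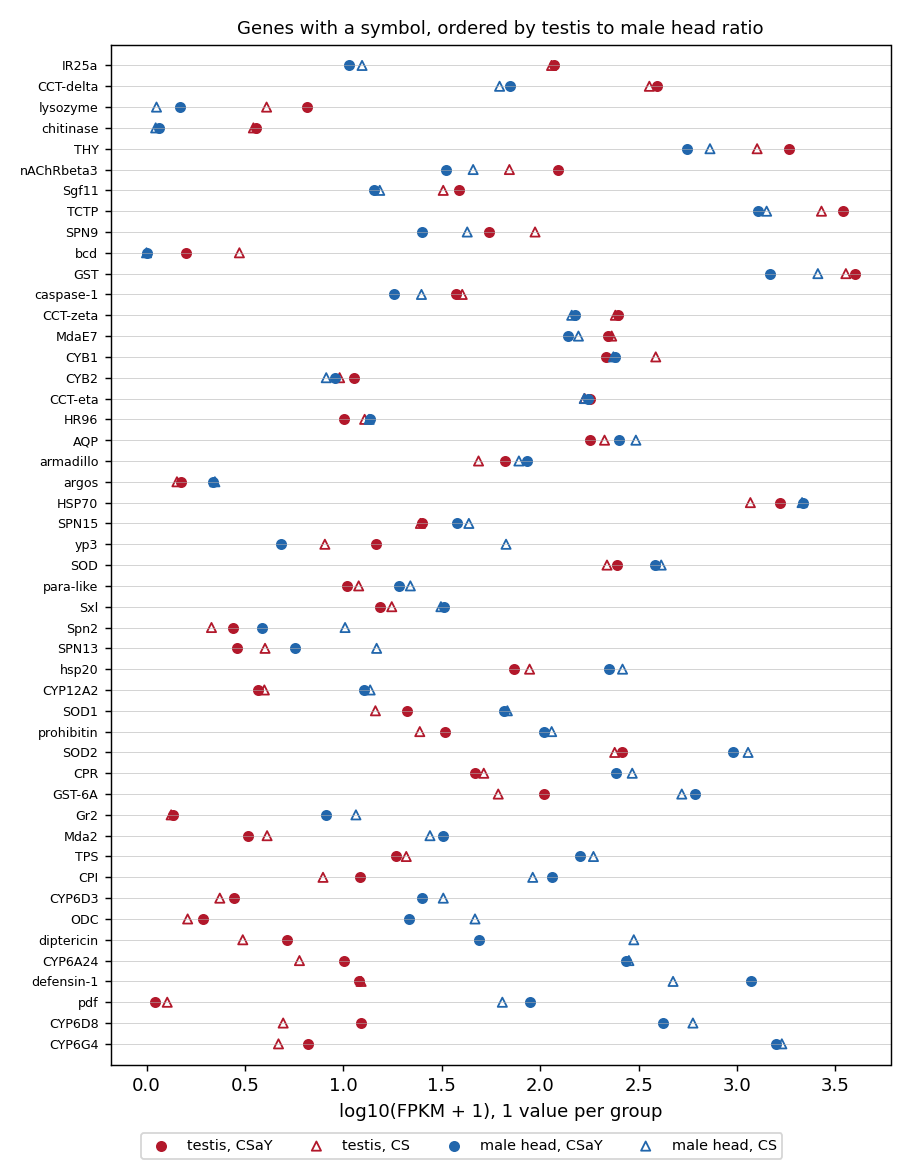
Level of each gene with a symbol that passed the filter, as log10(FPKM + 1), in testes (red) and male heads (blue) of CSaY (filled circles) and CS (open triangles). Genes run from the largest testis to male head ratio (IR25a) at the top to the smallest (CYP6G4) at the bottom.

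Of 5 genes of neurons and sense organs that passed, 1 was higher in testis (32% of all genes were), 2 were lower (21.9% of all genes) and 2 did not reach 2-fold in both strains. The gene pdf, which encodes the neuropeptide pigment-dispersing factor, stood at 0.103 FPKM in CSaY and 0.274 FPKM in CS testes, against 87.3 FPKM and 63.2 FPKM in CSaY and CS heads. Mda2, an alpha subunit of the nicotinic acetylcholine receptor, stood at 2.30 and 3.10 FPKM in CSaY and CS testes, against 31.2 and 26.5 FPKM in CSaY and CS heads. In both genes the testis values lay far below the head values in both strains, with centred ratios of -6.27 in CSaY and -5.50 in CS for pdf and of -3.24 and -2.60 for Mda2. The 4 genes that passed in the ortholog group of Mda2 were all lower in testis, beside 21.9% of all genes. They stood at 0.154 to 5.08 FPKM in testes, against 28.9 to 248.6 FPKM in heads as means of the strains. The lowest in testes passed the filter through heads alone, and related copies are not independent, so this count carries no weight. The locus of pdf is shared with another gene.

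IR25a went the other way and had the largest ratio toward testis of any gene with a symbol. It encodes a co-receptor that works with other ionotropic receptors in odour, taste and temperature sensing in Drosophila. It stood at 116.7 FPKM in CSaY and 113.2 FPKM in CS testes, against 9.65 FPKM and 11.4 FPKM in CSaY and CS heads. The centred ratios were 3.52 in CSaY and 3.35 in CS, the testis values of both strains were close, and the authors' deposited table gives q = 0.927 for the strains in testis. It is a single-copy gene on chromosome 1 (scaffold NW_004764064, positions 250159 to 261488), and its locus in the table is not shared. In ovaries IR25a stood at 2.39 FPKM in CSaY and 3.88 FPKM in CS, below female heads at 5.30 and 9.42 FPKM in these strains, so its high level was seen in testis and not in ovary.

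The beta subunit nAChRbeta3 was also above head in testes, but passed 2-fold in 1 strain alone. It stood at 122.1 FPKM in CSaY and 68.7 FPKM in CS testes, against 32.0 FPKM and 44.6 FPKM in CSaY and CS heads, with centred ratios of 1.95 and 0.77. Its locus is shared with another gene. The sodium channel gene para-like, which carries the action potential, stood at 9.46 FPKM in CSaY and 11.0 FPKM in CS testes, against 18.2 FPKM and 20.9 FPKM in CSaY and CS heads. Its ratios of -0.83 and -0.72 did not reach 2-fold. The GABA receptor gene MdRdl and the receptor subunit gene Mda6 lay under 1 FPKM in all 4 columns.

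Detoxification genes were mostly lower in testis. Of the 10 that passed, 7 were lower (21.9% of all genes were), 0 were higher (32% of all genes) and 3 did not reach 2-fold in both strains. Among all 48 genes with a symbol that passed, 19 were lower and 7 higher. The median centred ratios of the 10 were -2.40 in CSaY and -2.65 in CS. CYP6G4, a cytochrome P450 that oxidises foreign compounds, had the lowest ratio of any gene with a symbol. It stood at 5.60 FPKM in CSaY and 3.68 FPKM in CS testes, against 1567 FPKM and 1687 FPKM in CSaY and CS heads. All 5 P450 genes with a symbol that passed were lower in testis, with centred ratios between -8.34 and -1.63, and CYP12A1 lay under 1 FPKM in all 4 columns. The reductase CPR, which passes electrons to P450 enzymes, was lower too, at 45.9 and 50.7 FPKM in CSaY and CS testes, against 241.4 and 292.3 FPKM in CSaY and CS heads.

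The wider P450 family was less uniform than the genes with symbols. The 4 ortholog groups that hold the P450 symbols had 46 genes that passed. Of these 24 were lower in testis (52.2%, against 21.9% of all genes), 5 were higher (10.9%, against 32% of all genes) and 17 did not reach 2-fold in both strains. Among those higher in testis was LOC101899135, in the group of CYP6D8, at 22.3 FPKM in CSaY and 12.2 FPKM in CS testes, against 5.68 FPKM and 5.70 FPKM in CSaY and CS heads. LOC101887865, in the group of CYP6G4 and with a shared locus, stood at 8.10 and 13.3 FPKM in CSaY and CS testes, against 0.0226 FPKM in CSaY and a listed 0 in CS heads. The division of reads between near-identical copies was not stated, so levels of single copies are uncertain. Related copies are also not independent of each other.

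Glutathione S-transferases, which couple glutathione to toxic compounds, differed by member. GST-6A stood at 104.1 FPKM in CSaY and 60.2 FPKM in CS testes, against 611.3 FPKM and 522.7 FPKM in CSaY and CS heads. All 5 genes of its ortholog group were lower in testis, beside 21.9% of all genes. They stood at 26.9 to 82.3 FPKM in testes, against 185.1 to 567.0 FPKM in heads as means of the strains. The gene GST of another ortholog group was abundant in testis, at 3975 FPKM in CSaY and 3569 FPKM in CS testes, against 1463 FPKM and 2572 FPKM in CSaY and CS heads. Its ratios of 1.49 in CSaY and 0.63 in CS did not reach 2-fold in both strains. The esterase gene MdaE7 stood at 220.5 and 229.7 FPKM in CSaY and CS testes, against 137.3 and 155.3 FPKM in CSaY and CS heads, while the other 4 genes of its group were lower in testis.

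Genes of oxidative defence and metabolism were lower in testis in 5 of 6 cases, beside 21.9% of all genes, and 0 were higher, beside 32% of all genes. Genes with a symbol lean toward the head as a set, with 19 of 48 lower and 7 higher. ODC, the ornithine decarboxylase that starts the making of polyamines, stood at 0.936 FPKM in CSaY and 0.617 FPKM in CS testes, against 20.5 FPKM and 45.6 FPKM in CSaY and CS heads. The other gene of its group that passed was counted as higher in testis. TPS, the enzyme that makes the blood sugar trehalose, stood at 17.4 and 19.9 FPKM in CSaY and CS testes, against 157.4 and 185.4 FPKM in CSaY and CS heads. SOD2, the superoxide dismutase of mitochondria, stood at 260.7 FPKM in CSaY and 237.9 FPKM in CS testes, against 953.5 FPKM and 1136 FPKM in CSaY and CS heads. Prohibitin, a scaffold protein of the inner mitochondrial membrane, had ratios of -1.62 in CSaY and -2.07 in CS, and SOD1 had -1.58 and -2.07. The gene SOD, whose locus is shared with another gene, had -0.59 and -0.76 and was not counted.

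Of 7 immune genes that passed, 2 were higher in testis, 2 were lower and 3 did not reach 2-fold in both strains. These counts are near the shares of all genes, of which 32% were higher and 21.9% lower. The antimicrobial peptide gene defensin-1 stood at 11.0 FPKM in CSaY and 11.3 FPKM in CS testes, against 1171 FPKM and 471.9 FPKM in CSaY and CS heads. Testis levels were nearly the same in both strains, and the head levels set the difference between the ratios of -6.55 and -5.11. Of the 5 genes of its ortholog group, on 1 scaffold, 4 were lower in testis and 1 was higher. Diptericin, another antimicrobial peptide, stood at 4.18 and 2.08 FPKM in CSaY and CS testes, against 48.1 and 297.7 FPKM in CSaY and CS heads, with ratios of -3.19 and -6.45.

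Lysozyme, an enzyme that cuts bacterial cell walls, was higher in testis at a low level, at 5.55 FPKM in CSaY and 3.07 FPKM in CS testes, against 0.478 FPKM and 0.124 FPKM in CSaY and CS heads. Its locus is shared with another gene. The serpin gene SPN9, an inhibitor of serine proteases, was higher as well, at 53.7 FPKM in CSaY and 93.1 FPKM in CS testes, against 24.2 FPKM and 41.6 FPKM in CSaY and CS heads. CS exceeded CSaY in both tissues, and the ratios of 1.17 in CSaY and 1.30 in CS were alike. Its ortholog group had 11 genes that passed, of which 3 were higher in testis, 4 were lower and 4 did not reach 2-fold in both strains. Among all genes 32% were higher and 21.9% lower.

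Of 5 chaperone genes, 1 was higher in testis (32% of all genes were), 1 was lower (21.9% of all genes) and 3 did not reach 2-fold in both strains. The cytosolic chaperonin is a ring of different subunits that folds actin and tubulin. CCT-delta stood at 389.9 FPKM in CSaY and 357.4 FPKM in CS testes, against 69.6 FPKM and 61.2 FPKM in CSaY and CS heads, with ratios of 2.52 and 2.68. CCT-zeta stood at 246.6 and 239.8 FPKM in CSaY and CS testes, against 150.1 and 143.5 FPKM in CSaY and CS heads, with ratios of 0.77 and 0.89. CCT-eta stood at 178.2 and 167.0 FPKM in CSaY and CS testes, against 174.2 and 166.4 FPKM in CSaY and CS heads. CCT-eta had the smallest tissue difference of all genes with a symbol at 50 FPKM or more in all 4 columns, with ratios of 0.09 and 0.16. The 3 subunits of 1 complex thus stood at different tissue ratios, in the same order in both strains.

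The small heat shock gene hsp20 was lower in testis, at 72.2 FPKM in CSaY and 87.3 FPKM in CS, against 221.9 FPKM and 260.9 FPKM in CSaY and CS heads. HSP70, at 1653 and 1167 FPKM in CSaY and CS testes, against 2161 and 2138 FPKM in CSaY and CS heads, was not counted. The water channel gene AQP was not counted either, with ratios of -0.44 and -0.38.

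Among genes of growth and gene regulation 2 of 7 were higher in testis, near the 32% of all genes, and 0 were lower, beside 21.9% of all genes. TCTP, a highly expressed protein tied to growth, stood at 3445 FPKM in CSaY and 2682.5 FPKM in CS testes, against 1270.5 FPKM and 1412 FPKM in CSaY and CS heads. Sgf11, a subunit of the SAGA complex that modifies histones, stood at 37.5 FPKM in CSaY and 31.2 FPKM in CS testes, against 13.3 FPKM and 14.3 FPKM in CSaY and CS heads. Caspase-1, a protease of cell death, had ratios of 1.09 in CSaY and 0.84 in CS and missed the count in CS. Sxl, which controls sex in Drosophila but was named here by its symbol alone, had -1.03 and -0.68 and missed it in CS too. The armadillo gene, the beta-catenin of cell adhesion and Wnt signalling, had -0.32 and -0.53.

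The remaining genes with symbols included 2 that were lower in testis. Gr2 stood at 0.364 FPKM in CSaY and 0.334 FPKM in CS testes, against 7.15 FPKM and 10.6 FPKM in CSaY and CS heads. CPI, whose locus is shared with another gene, stood at 11.1 and 6.88 FPKM in CSaY and CS testes, against 114.4 and 90.6 FPKM in CSaY and CS heads. Of the 8 genes of its ortholog group 5 were lower (21.9% of all genes were) and 0 were higher (32% of all genes). A chitinase gene, whose product cuts chitin, was higher in testis at 2.61 and 2.49 FPKM in CSaY and CS, against 0.155 and 0.113 FPKM in CSaY and CS heads. Its locus is shared with another gene.

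The table places genes in ortholog groups, and 905 groups had at least 2 genes that passed. In 195 of these at least 1 gene was higher and at least 1 was lower in testis, in 111 all genes were higher and in 86 all were lower. Among all genes 32% were higher and 21.9% lower, so groups of each kind also arise without regard to family. Whether there were more than that was not tested. Among the 142 groups with at least 5 such genes, 86 held both directions. In group 1458, 8 of its 13 genes passed the filter, and these were all higher in testis, at 1.77 to 147.7 FPKM in testes, against 0 to 0.876 FPKM in heads as means of the strains. In group 1139, 13 of its 15 genes passed, on 1 scaffold, and all 13 were listed at 0 in heads. Of these 10 were counted as higher in testis, at 2.65 to 84.7 FPKM. The genes of both groups passed the filter through testis alone, so their direction was fixed by it and carries no weight. How far this holds for the 111 and 86 groups with 1 direction was not counted. In group 1441, 14 of 17 genes were lower in testis (21.9% of all genes were). Those 14 stood at 0.101 to 36.1 FPKM in testes, with a median of 1.48 FPKM, against 6.99 to 1467 FPKM in heads. Those under 1 FPKM in both testis columns passed the filter through heads alone, so their direction was fixed by it. How many these were was not counted, and the share of 14 of 17 carries no weight.

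In 40 groups with exactly 2 genes that passed, 1 gene was higher and the other lower in testis. With 32% of all genes higher and 21.9% lower, such pairs also arise without regard to family. Whether 40 is more than that was not tested. The pair with the largest opposite ratios, chosen after its values were seen, was LOC101901799 and LOC101896296. LOC101901799 stood at 20.2 FPKM in CSaY and 61.2 FPKM in CS testes and was listed at 0 in both head columns. LOC101896296 stood at 7.62 FPKM in CSaY and 6.12 FPKM in CS testes, against 150.1 FPKM and 173.4 FPKM in CSaY and CS heads. The next pair was LOC101892766, at 36.0 and 26.4 FPKM in CSaY and CS testes, against a listed 0 in CSaY and 0.263 FPKM in CS heads, and LOC101893117, at 2.11 and 4.72 FPKM in CSaY and CS testes, against 81.7 and 103.0 FPKM in CSaY and CS heads. Each of these pairs thus held 1 copy that was near 0 in heads and 1 that was low in testes. The testis-rich copy LOC101901799 was also abundant in ovaries, at 268.3 FPKM in CSaY and 161.7 FPKM in CS. The head-rich copy LOC101896296, whose locus is shared with another gene, stood at 72.2 FPKM in CSaY and 50.3 FPKM in CS ovaries.

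Along the scaffolds there were 32 runs of at least 5 neighbouring genes that passed and were all higher in testis, with 180 genes in all, and 18 runs of lower genes with 102 genes. With 32% of all genes higher and 21.9% lower, runs of this length also arise where genes are placed without regard to tissue, and whether there were more than that was not tested. The longest run held 10 genes higher in testis on scaffold NW_004767649 of chromosome 4, from position 1382713 to 1444684. Of the genes in that stretch, 7 belonged to ortholog group 1470, at 16.2 to 494.3 FPKM in testes, against 0 to 26.1 FPKM in heads. LOC101897655 of that group stood at 187.5 FPKM in CSaY and 241.0 FPKM in CS testes, against 0.361 and 0.862 FPKM in CSaY and CS heads. A gene that shares its locus with the first of the run, LOC101896785, is not part of it, and its ratios of 0.51 and 0.44 did not reach 2-fold.

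The table sorts genes by their match to Drosophila genes. Genes marked lr have no Drosophila gene there. Genes marked sco are the only house fly gene of their ortholog group and have 1 Drosophila gene. Of the 1281 lr genes that passed, 35.1% were higher and 22.5% lower in testis. Of the 6504 sco genes 30.5% were higher and 18.6% lower. Among all genes that passed these shares were 32% and 21.9%. Genes marked 1tom, the house fly side holding 1 gene of a group and Drosophila several, had the largest share of higher genes, at 36.4% of 607. Of these 607 genes 8.57% were at least 64-fold higher. In the other classes that share ran from 2.38% (sco) to 4.64% (none), and over all genes it was 3.19%. Genes marked mtom, with several in both species, had the largest share of lower genes, at 30.4% of 1917, beside 34.7% higher. Over the 6 classes the share of higher genes ran from 28.5% to 36.4%, and that of lower genes from 18.6% to 30.4%. These shares carry no test.

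**Figure D4:**
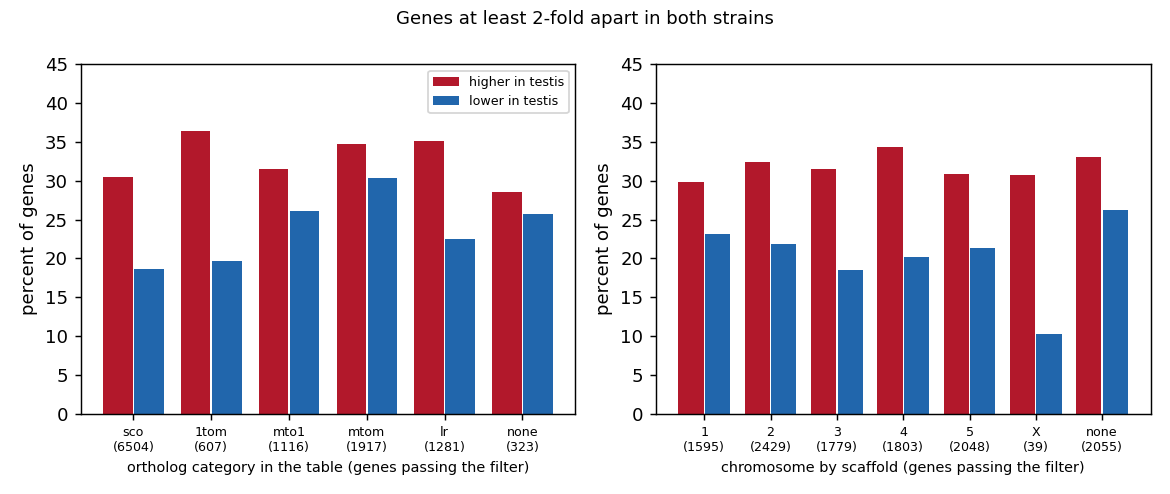
Percent of genes that were at least 2-fold higher (red) or lower (blue) in testis in both strains, by the table's ortholog category on the left and by chromosome on the right, with the number of genes that passed under each pair of bars. The bars for X rest on 39 genes, and the category marked none has no ortholog group.

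Chromosomes differed little in their share of testis genes. Between 29.8% (chromosome 1) and 34.3% (chromosome 4) of the genes on chromosomes 1 to 5 were higher in testis, and between 18.5% (chromosome 3) and 23.1% (chromosome 1) were lower. On the X chromosome, which is small and holds few genes in this table, 12 of 39 genes were higher in testis (30.8%) and 4 were lower (10.3%). Over all genes these shares were 32% and 21.9%. The 39 genes hold 22 ortholog groups, and related copies are not independent of each other. The X gene with the largest ratio toward testis was LOC101892507, at 132.3 FPKM in CSaY and 208.3 FPKM in CS testes, against 0.0578 and 0.0753 FPKM in CSaY and CS heads. The most abundant of the 12 in testis was LOC101888253, at 1738.5 FPKM in CSaY and 823.6 FPKM in CS testes, against 272.3 FPKM and 313.3 FPKM in CSaY and CS heads. The tissue ratio itself differed by at least 2-fold between the strains in 11.8% of the genes on chromosome 3 and in 10 of the 39 genes on X, against 4.94 to 5.66% on chromosomes 1, 2, 4 and 5. Among genes with no chromosome in the table it was 14.5%, and over all genes 947 of 11748 differed this much.

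Female tissues gave a separate readout of the same genes, from libraries that the male comparison did not use. Ovaries and female heads had 1 library per strain in each tissue, and their ratios were centred in the same way. Of the 2572 genes lower in testis than in male head, 1950 were also lower in ovary than in female head in both strains (75.8%), where 33.4% of all genes were. Only 55 of them were higher in ovary (2.14%, against 20.2% of all genes). Of the 3765 genes higher in testis, 1225 were also higher in ovary (32.5%, against 20.2% of all genes) and 446 were lower (11.8%, against 33.4%). Another 1058 lay under 1 FPKM in all 4 female columns and could not be classed there (28.1%). That share was 0.894% among genes lower in testis and 8.55% among genes that did not reach 2-fold in both strains. Head-rich genes were thus mostly low in both gonads, while fewer of the testis-rich genes were also ovary-rich.

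**Figure D5:**
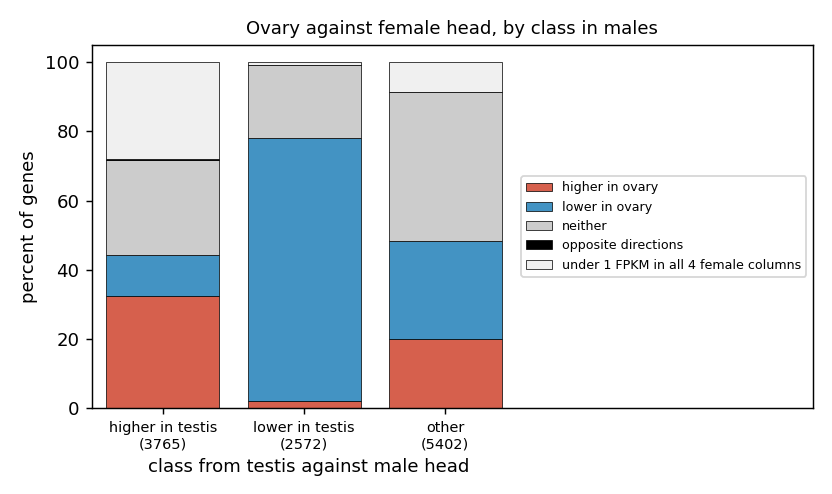
Percent of genes by their ovary to female head ratio, for genes higher in testis, lower in testis and other genes of the male comparison. Of the lower class 75.8% were also lower in ovary, and of the higher class 32.5% were higher in ovary and 28.1% lay under 1 FPKM in all 4 female columns.

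Genes with symbols illustrate each kind. CCT-delta and Sgf11 were higher in both gonads than in heads, with CCT-delta at 235.8 FPKM in CSaY and 252.7 FPKM in CS ovaries, against 51.1 FPKM and 43.4 FPKM in CSaY and CS female heads. IR25a, SPN9 and lysozyme were higher in testis and lower in ovary. Lysozyme, whose locus is shared, stood at 0.316 FPKM in CSaY ovaries and was listed at 0 in CS ovaries. Female heads of CSaY and CS had 150.1 and 98.7 FPKM, where male heads had 0.478 and 0.124 FPKM. Its classes thus rest largely on the head columns. The authors' test of female against male heads gave q = 0.601 for it. SPN9 stood at 0.427 FPKM in CSaY and 0.317 FPKM in CS ovaries, against 30.3 FPKM and 18.8 FPKM in CSaY and CS female heads. Of the 19 genes with a symbol that were lower in testis, 17 were also lower in ovary, and SOD1 and prohibitin were not. Prohibitin stood at 224.9 FPKM in CSaY and 229.5 FPKM in CS ovaries, against 128.0 FPKM and 96.5 FPKM in CSaY and CS female heads.

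Traces of the most abundant testis transcripts were present in the ovary columns in an even proportion. Among 82 genes with at least 1000 FPKM in both testis columns and at least 64-fold above male head, the ovary level was a median 0.274% of the testis level in CSaY and 0.168% in CS. In CSaY the 10th and 90th percentiles were 0.180% and 0.423%, and none of the 82 genes was listed at 0 in that column. In the male head columns the medians were 0% in CSaY and 0.00453% in CS. Of the 1225 genes counted as higher in both gonads, 47 had ovary levels under 1% of the testis level in both strains, and 1178 genes (31.3% of the 3765) are left without them. The part of these traces in the ovary values was not tested.

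The authors' tests between the strains within each tissue were set beside the tissue classes. Of all genes tested in testes 13% differed between CSaY and CS at q below 0.05 in the authors' deposited table, and of those tested in male heads 9.25% did. Among the genes higher in testis, 514 of 3719 tested in testes were called (13.8%) and 112 of 2069 tested in heads (5.41%), per the authors' deposited table. Among the genes lower in testis, 197 of 1769 tested in testes were called (11.1%) and 387 of 2569 tested in heads (15.1%), per the same deposited table. Head-rich genes were thus called more often in heads than testis-rich genes were. Their median level in heads was 42.2 FPKM, against 7.89 FPKM for the testis-rich genes tested there, and the part of the level in these shares was not tested.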

How the data were processed

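Messenger RNA of testes and male heads of strains CSaY and CS was sequenced in 3 libraries per group. Per the labels' protocols, RNA came from TRIzol and RNeasy columns and went into TruSeq libraries. Cufflinks 2.2.1, CASAVA 1.8.2, Bowtie2 2.1.0.0 and TopHat2 2.0.8b were used, per the submitters' processing notes. Which step each did was not stated, nor was the genome build.

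The FPKM values were made by the authors, 1 per group, per the file headers, so read depth and library spread are unknown here. The q-values of the strain comparisons were computed by the authors and used as deposited, and the test statistic, a score in the deposited table, entered no computation. Columns were scaled separately, so ratios were median-centred. No p-value was computed. Centring and counting were run on simulated data in which few genes changed, at 1 fold size and in both directions. In the data themselves 53.9% of the genes differed, so that run cannot show how the centring behaves here.

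Genes named are, among those counted with at least 10 FPKM in the higher tissue in both strains, those that lead in each direction by the smaller of their ratios in the strains (10 with a symbol, 3 over all genes, up to 4 per list); 5 genes with a symbol and at least 50 FPKM throughout with the smallest ratios; up to 5 genes with opposite directions; and any gene with a symbol. Other IDs were chosen after their values were seen. Members and lists were chosen with earlier results of these data known. Of 21 lists of name patterns 15 matched no symbol, so the 52 symbols were grouped by role instead. The 6 that did were P450 (0 higher and 5 lower in testis), glutathione S-transferases (0 and 1), immune effectors (1 and 2), cuticle (1 and 0), chaperonin (1 and 0) and sex determination (0 and 0). Symbols come from RefSeq assembly GCF_030504385.1, which held 12168 of the IDs. Starts count from 1, and the assembly of the positions was not stated. A locus is shared with another gene in 1732 cases.

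Alternatives were a pseudocount of 0.1, a 4-fold minimum, other centring, other filters and each strain alone. The 4 FPKM columns that join the strains enter no comparison given here. Leaving out genes with a shared locus was added after seeing the data. Python 3.11.15, numpy 2.4.6, pandas 2.3.3 and matplotlib 3.10.9 were used.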

Additional observations from a re-analysis of the deposited data

Results flagged for a closer look

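In 9 genes the testis to male head ratio passed 2-fold in opposite directions in the strains (0.0766% of the genes that passed). The difference was not tested, since each group has 1 value. All ratios are centred log2 values.

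The yolk protein gene yp3 stood at 13.6 FPKM in CSaY and 7.05 FPKM in CS testes, against 3.82 FPKM and 66.0 FPKM in CSaY and CS heads, with ratios of 1.65 and -2.90. The head values, more than the testis values, set these apart. LOC101889108 had ratios of 1.51 in CSaY and -2.77 in CS, with 71.9 and 2.47 FPKM in CSaY and CS testes, against 25.4 FPKM in heads of both strains. Here the testis values differed. LOC101898215 had 1.82 and -1.04, LOC101895800 had 1.27 and -1.58, LOC101897576 had 1.37 and -2.54, and LOC101891488 had 1.10 and -1.22, each with CSaY before CS. The loci of LOC101889108 and LOC101897576 are each shared with another gene. LOC101897576 stood at 0.893 FPKM in CSaY and 29.0 FPKM in CS heads, and the authors' test between the strains in heads gave q = 0.269.

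LOC101898334 had ratios of -3.34 in CSaY and 2.97 in CS and was listed at 0 in CS heads. LOC101898536 had -1.19 and 6.50, at 49.6 and 80.5 FPKM in CSaY and CS testes, against 119.0 FPKM in CSaY heads and a listed 0 in CS heads. LOC101891564 had -2.07 and 1.09 and was listed at 0 in CSaY testes and in CS heads. The ratios of these 3 genes rest on a value listed at 0.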

How the results depend on the processing

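No paired analysis was possible because the columns carry 1 value per group and no replicate number, and no replicate could be left out. With a minimum of 4-fold, 2126 genes were higher and 1277 lower in testis, and 1 gene passed in opposite directions. With a pseudocount of 0.1, 36 genes passed in opposite directions. Under the other settings the counts stayed within 1.5 times, from 2834 to 4376 higher and from 2135 to 3033 lower. Without centring they were 3592 higher and 2751 lower, and the median ratio over all genes that passed was 0.16, where it was 0.27 with centring. No gene with a symbol that was counted changed direction, by the mean of the ratios, under the settings run. Some calls were lost. Without centring, or with centring over genes of at least 1 FPKM, 1 growth gene was higher in place of 2. With a filter of 10 FPKM, lysozyme and chitinase were no longer counted. By the same limit of 1.5 times, 15 counts of role groups moved and 97 did not. Of the chromosome shares 12 moved and 84 did not. The planned use of the columns that join the strains was withdrawn after its result had been seen, since those columns could not be tied to 1 group of libraries. It had turned the direction of 3 genes, each listed at 0 in a joined column, among them LOC101900596, the second most abundant gene in CSaY testes. Depth cannot be given, so low values carry an unknown counting error.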
